A study of Mus musculus with 54 samples.

Results

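Cells and nuclei of the distal convoluted tubule were taken from 39 10x libraries of mouse kidney, each a table of unique molecular identifier (UMI) counts per gene and barcode. A barcode was counted as a member when it held at least 2 UMIs of Slc12a3, more UMIs of Slc12a3 than of Slc12a1, and none of Aqp2. This rule found 8950 members among 175959 barcodes. Of these, 2250 were among the 77656 barcodes of the 27 cell libraries (2.90%) and 6700 were among the 98303 barcodes of the 12 nuclei libraries (6.82%). The members were thus chosen by their UMIs of Slc12a3, Slc12a1 and Aqp2, and the values of these 3 genes in members are descriptions with no test.

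The study compared ways of preparing kidney tissue, with 3 libraries per condition from 3 mice. The first experiment used male C57BL/6J mice of 19 weeks, all carrying the AFAPIL.1DEL allele, and 10x chemistry version 2. Its kidneys were dissociated either warm, at 37 °C with a multi-tissue enzyme kit, or cold, with a cold-active protease, and each suspension was profiled fresh, after 6 weeks of cryopreservation, or after 3 months in methanol. The second experiment used male Balb/c mice of 18 weeks and chemistry version 2, with cold-dissociated fresh cells beside nuclei from flash-frozen kidneys washed 3 times at 500 g (3x500g). The third used wild-type female Balb/c mice of 15 weeks, which were former breeders, and chemistry version 3. It held cold-dissociated cells, fresh and after 2 weeks of cryopreservation, and nuclei prepared by 3x500g washes, by a single spin at 2000 g (1x2000g) or with a sucrose cushion. The 3x500g nuclei of both experiments and the 1x2000g nuclei were sorted by fluorescence, and the sucrose nuclei were not. Sorting and the rest of the sucrose preparation cannot be told apart. Bulk RNA-seq covered fresh cold and warm C57BL/6J suspensions, and cold suspensions and intact kidneys of the Balb/c females; intact kidneys of Balb/c males were not used here. The experiments differed in age and batch and, between some of them, in strain, sex and chemistry, whose parts cannot be told apart, so every test was made within an experiment.

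The distal convoluted tubule is the short stretch of nephron between the thick ascending limb and the connecting tubule. Its cells take up sodium chloride from the urine through the thiazide-sensitive cotransporter NCC, the product of Slc12a3, which is switched on by WNK kinases acting through the kinase SPAK (Stk39) and is held back by the ubiquitin ligase adaptor Klhl3. The same cells reabsorb magnesium through the channel Trpm6, and their late portion shares calcium transport (Trpv5, Calb1, Slc8a1) and aldosterone-regulated sodium channels (Scnn1b, Scnn1g) with the connecting tubule. On the basolateral side sodium pump subunits (Atp1b1, Fxyd2), the potassium channels Kcnj10 and Kcnj16 and the chloride channel subunit Bsnd complete the salt route.

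The label was checked with genes that the rule did not use. Pvalb, a calcium-binding protein of the early distal convoluted tubule, was detected in 83.0%, 85.4% and 88.8% of the members of the 3 fresh Balb/c female cell libraries, against 2.22% to 2.58% of their proximal tubule barcodes (at least 2 UMIs of Slc34a1) and 11.1% to 14.1% of their thick ascending limb barcodes (at least 2 UMIs of Slc12a1, and more than of Slc12a3 or Aqp2). In cold fresh C57BL/6J cells it was detected in 45.6% to 50.4% of members, and in warm fresh cells in 35.7% to 57.8%. Nuclei gave less Pvalb. It was found in 35.0% to 36.4% of members of the female 3x500g libraries and in 9.24% to 17.3% of the male nuclei, while 0.648% to 1.11% of the female proximal tubule nuclei held a UMI. Members of the female cells and nuclei differed in depth, with median UMI counts per library of 4422 to 6573 in fresh cells and 3173 to 3969 in nuclei of the 3 preparations. With barcodes of at least 500 UMIs thinned to 500, Pvalb was detected in 51.9% to 58.4% of the female cell members and in 6.75% to 6.99% of the 3x500g nuclei members.

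Near the threshold the members were less clear. Among cell barcodes that met the other conditions, Pvalb was detected in 13.6% of the 1600 with 1 UMI of Slc12a3, just outside the rule, in 41.5% of the 337 with 2 UMIs, just inside it, and in 73.5% of the 1496 with 5 or more. Among nuclei the corresponding shares were 0.993% of 4731, 1.63% of 490 and 33.0% of 6113, and none of the 72 nuclei with 3 UMIs and none of the 25 with 4 held a Pvalb UMI. The condition on Aqp2 left out 124 of 2385 cell barcodes (5.20%) and 1264 of 8250 nuclei (15.3%) with at least 2 UMIs of Slc12a3, and that on Slc12a1 left out 11 cells (0.461%) and 286 nuclei (3.47%).

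**Figure D1:**
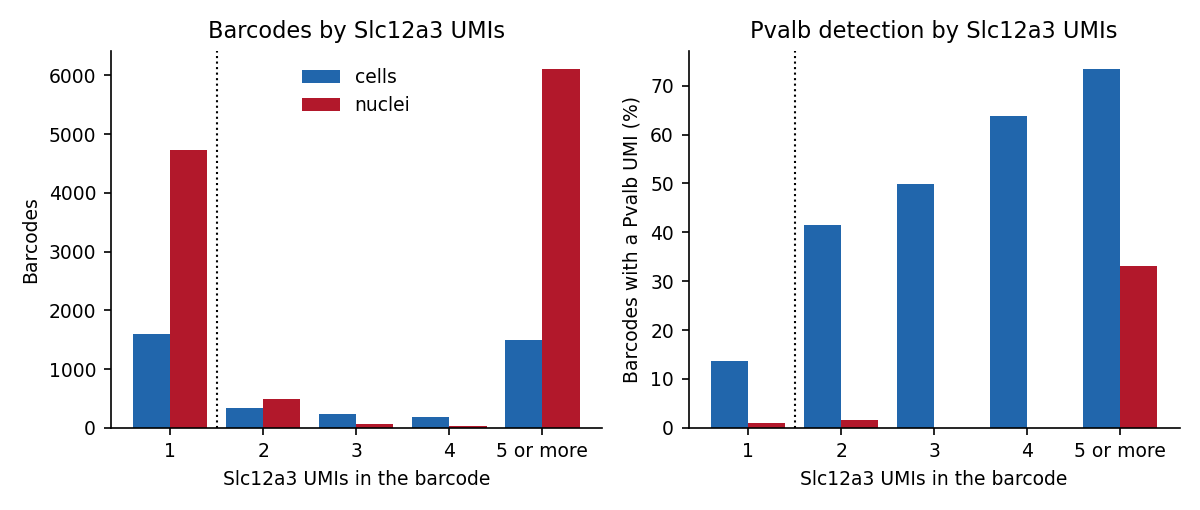
Left, barcodes (y axis, number) and right, barcodes with a Pvalb UMI (y axis, percent) by the number of Slc12a3 UMIs (x axis), for cells and nuclei that met the other conditions of the rule; the dotted line marks the threshold of 2 UMIs. In cells the share with Pvalb went from 13.6% at 1 UMI to 73.5% at 5 or more, and in nuclei it stayed at or below 1.63% up to 4 UMIs and was 33.0% at 5 or more.

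Many member barcodes also carried transcripts of other cell types. Between 17.6% and 76.9% of the members of a library held at least 2 UMIs of a defining marker of another type, in most conditions Umod, which encodes uromodulin of the thick ascending limb. At least 2 UMIs of Umod were found in 47.1% to 62.1% of the members of cold fresh C57BL/6J libraries, in 58.5% to 63.7% of fresh Balb/c female cells and in 26.1% to 35.0% of female 3x500g nuclei. In the male nuclei the proximal tubule gene Slc34a1 was the more frequent, in 15.9% to 22.7% of members against 7.43% to 16.8% for Umod. No barcode was removed as a doublet, and whether these barcodes are doublets, free RNA or transcripts of the cells themselves was not tested. The summed level of 8 proximal tubule markers was 2187 to 2406 CPM (counts-per-million scale, of non-mitochondrial UMIs) in cold fresh C57BL/6J members, against 19192 in the middle library over all barcodes, while 8 distal convoluted markers summed to 12994 to 14345 CPM in members and to 1482 CPM over all barcodes. Markers of the neighbouring segments were also higher in these members than over all barcodes. The 4 thick ascending limb markers summed to 2204 to 3822 against 929 CPM. The 6 connecting tubule and principal cell markers summed to 5555 to 6654 against 1067 CPM. The rule sets no condition on connecting tubule genes. The paper picked out its candidate connecting tubule cells by Calb1 and Klk1, and whether members include such cells was not tested. The comparisons were therefore repeated without these mixed barcodes. One fresh Balb/c male library, MJ05, was shallow, with a median of 343 UMIs over all barcodes and only 4 members with at least 500 UMIs. Libraries of the same 10x chemistry shared few barcode sequences: the highest share over 381 pairs was 2.05% of the smaller library, and 17 member barcodes were shared in all.

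The share of barcodes that were distal convoluted members was higher in nuclei than in cells. Barcodes with at least 500 UMIs were thinned to 500 and the others left out. This kept 549 of 3577 barcodes in the male cell library MJ05 and all 8657 in the female nuclei library MJ45. Members then made up 1.77%, 1.94% and 2.02% of the fresh Balb/c female cells and 7.63%, 8.02% and 8.52% of the 3x500g nuclei. All nuclei libraries lay above all cell libraries, with a difference of 6.15 percentage points (1.91% ± 0.128 in cells and 8.06% ± 0.449 in nuclei, SD, n = 3). In the Balb/c males the cells gave 0.546%, 2.93% and 3.13% and the nuclei 7.37%, 7.54% and 8.29%, a difference of 5.53 percentage points; the lowest value was that of the shallow library. Each of these differences had p = 0.1 in an exact two-sided permutation test, which is the smallest p that 3 libraries against 3 allow, and 0.275 after adjustment over the 11 comparisons of shares. Barcodes outside the proximal tubule were those with fewer than 2 UMIs of Slc34a1 after thinning, which kept 4013 of 4545 in the female cell library LD01. Counted only among these, the mean shares were 2.18% in female cells and 10.2% in female nuclei, and 2.59% and 11.5% in the males. Without thinning, the shares of all barcodes were 4.26% to 5.01% in female cells and 7.86% to 8.54% in female nuclei. In the males they were 2.43% to 3.55% and 7.12% to 8.74%. Mitochondrial UMIs, 35.1% to 38.6% of the member UMIs in female cells, counted in the thinning, whereas mitochondrial genes were removed from nuclei. In these droplet data fewer cells of a type and less Slc12a3 RNA per cell cannot be told apart, and intronic reads were counted in nuclei but not in cells.

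Among the nuclei preparations, 3x500g gave the highest shares. Members made up 6.14%, 6.37% and 6.64% of the 1x2000g nuclei and 5.62%, 6.12% and 6.40% of the sucrose nuclei, so that neither overlapped with 3x500g. The differences from 3x500g were -1.67 and -2.01 percentage points, each with p = 0.1 in the exact permutation test. The difference of 0.336 points between 1x2000g and sucrose nuclei was within their spread (p = 0.4, exact permutation test). With dissociation temperature and storage the shares overlapped between the conditions compared. In C57BL/6J cells the shares were 1.04%, 1.40% and 1.64% in cold fresh libraries and 0.866%, 0.906% and 1.27% in warm fresh ones (difference -0.347 points, p = 0.2, exact permutation test). Cryopreserved cold, cryopreserved warm, methanol-fixed cold and methanol-fixed warm cells had means of 1.05%, 1.60%, 1.25% and 0.928%, with exact permutation p of 0.2, 0.2, 0.7 and 0.8 against the fresh cells of the same temperature. Without thinning, proximal tubule barcodes numbered 1033 to 3218 in fresh and 2 to 5 in cryopreserved C57BL/6J libraries. After thinning, 1544 of 2016 barcodes of the cold fresh library BG1 still counted as outside the proximal tubule. Counted outside the proximal tubule in this way, the mean was 1.05% in cryopreserved and 1.67% in fresh cold cells (difference -0.620 points, p = 0.2, exact permutation test). For cryopreserved warm, methanol-fixed cold and methanol-fixed warm cells the difference was then 0.180, -0.128 and -0.138 points. Without thinning, so with depth unmatched, shares outside the proximal tubule were 3.44% to 4.95% in cold fresh cells. They were 1.12% to 2.77% in cold cryopreserved and 1.79% to 3.04% in cold methanol-fixed cells, with no overlap with fresh. In warm cells they were 3.10% to 4.44% fresh, 2.78% to 3.52% cryopreserved and 1.42% to 1.67% methanol-fixed. Within the suspension that a stored and a fresh library shared, the share was lower after cryopreservation and after methanol in 3 of 3 cold pairs each, with differences of -0.718 to -0.0971 and -0.16 to -0.0128 points, and differed in direction among the warm pairs; the exact sign-flip permutation p was 0.25 for both cold comparisons, the smallest that 3 pairs allow. Cryopreserved Balb/c female cells gave 1.83%, 1.95% and 2.42%, which overlapped with the fresh ones (p = 0.6, exact permutation test). Without thinning the cryopreserved female cells gave 3.63% to 4.08%, wholly below the fresh ones at 4.26% to 5.01%. Warm fresh cells then gave 1.74% to 2.26%, wholly below warm cryopreserved (2.77% to 3.51%) and above warm methanol-fixed cells (1.06% to 1.28%). Thinned to 1000 UMIs, these 2 groups also lay apart from warm fresh cells (2.51% to 3.473% and 1.796% to 2.006%, against 2.014% to 2.467%). At that depth warm fresh cells lay wholly below cold fresh ones (2.498% to 3.728%), and the other stored groups overlapped with fresh.

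**Figure D2:**
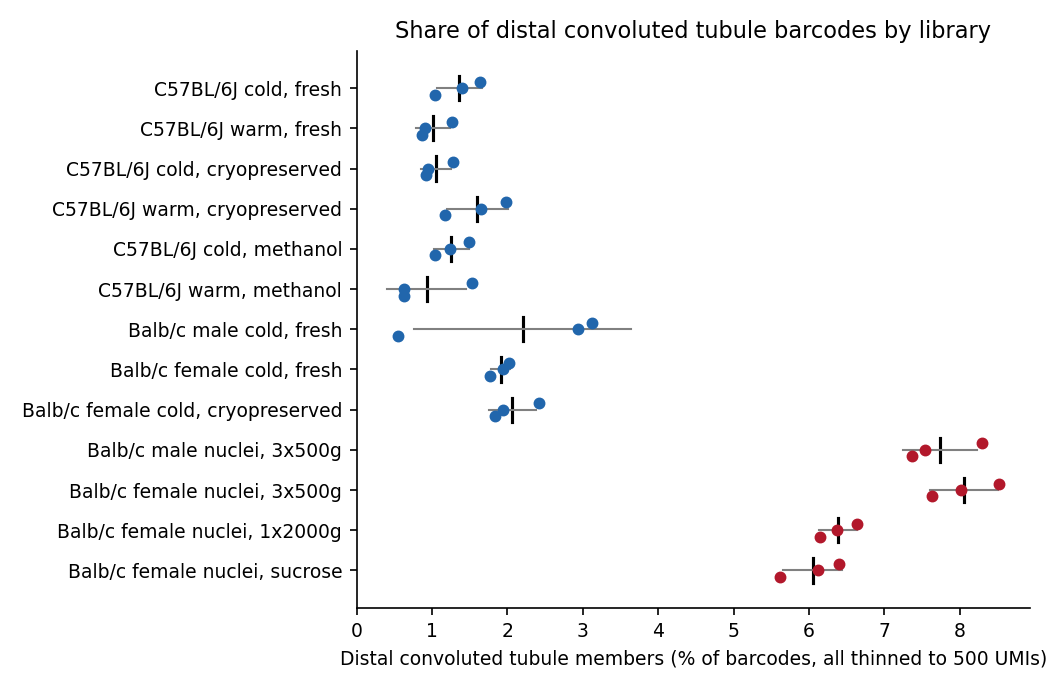
Distal convoluted members as a share of barcodes with at least 500 UMIs, each thinned to 500 (x axis, percent), in the 13 conditions of the 10x libraries (y axis). Each point is 1 library, the upright bar is the mean of 3 and the line is ± 1 SD; nuclei libraries lie between 5.62% and 8.52% and cell libraries between 0.546% and 3.13%.

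The transcripts that made up a member differed sharply between nuclei and cells. In the Balb/c females, 80.2% of 10559 genes tested differed between 3x500g nuclei and fresh cells at an adjusted p under 0.05 by edgeR's quasi-likelihood test on UMIs summed over the members of each library (42.3% higher in nuclei, 37.9% lower). In the Balb/c males the share was 63.4% of 6024 genes (42.7% higher, 20.7% lower). Without 1 nuclei library, MJ06, MJ07 or MJ08, the male count fell from 3821 to 1879, 1789 or 1799. Values below are CPM after TMM normalization, and log2 fold changes are given with their standard error.

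Pvalb fell and Slc8a1 rose in nuclei. Pvalb stood at 4256, 4403 and 4475 CPM in female cells and at 118, 132 and 138 CPM in 3x500g nuclei, a log2 difference of -5.08 ± 0.13 (adjusted p = 1.1e-14). In the males it went from 3012, 3497 and 3629 CPM in cells to 154, 237 and 249 CPM in nuclei (log2 difference -3.98 ± 0.22). Slc8a1, the sodium-calcium exchanger of the basolateral membrane, did the opposite. It stood at 186, 238 and 304 CPM in female cells and at 14518, 21520 and 24192 CPM in nuclei (log2 difference 6.37 ± 0.23, adjusted p = 6.4e-13). The groups were far apart for both genes. Thick ascending limb barcodes of the same female libraries changed alike, by -5.07 ± 0.27 for Pvalb and 5.98 ± 0.70 for Slc8a1. An interaction term in edgeR's test did not set the members apart for either gene (adjusted p = 0.99 and 0.79). In the thick ascending limb 9697 of 11960 genes were called. Members of the male cells held 1 UMI of Slc8a1 in all, against 15348 in the male nuclei, a ratio per UMI of 1425 with a counting interval of 256 to 56296.

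Of the 8 distal convoluted markers tested in the females, 2 rose in nuclei (Klhl3, Trpm6), 4 fell (Pvalb, Pgam2, Ppp1r1a, Tmem52b) and Wnk1 and Egf did not pass the test, with a median log2 difference of -0.67 against 0.16 over all genes, of which 42.3% were higher and 37.9% lower. Trpm6 went from 104, 138 and 167 CPM in cells to 647, 1051 and 1141 CPM in nuclei (2.78 ± 0.21), and Klhl3 from 72.6, 80.7 and 89.9 to 1068, 1383 and 1465 CPM (4.01 ± 0.16). Male cells held no Klhl3 UMI, and its level in male nuclei was at least 29.8-fold higher, counted against a floor of 3 UMIs over the group. Wnk1, whose kidney isoform is abundant in this segment, was near the same level in female cells (4538, 4942 and 5298 CPM) and nuclei (4374, 4526 and 5023 CPM; -0.09 ± 0.12, adjusted p = 0.50), but was called higher in nuclei after thinning (0.40, adjusted p = 0.021). Egf, the precursor of a growth factor that stimulates Trpm6, overlapped too (0.26 ± 0.15, adjusted p = 0.13). In the males, 2 of 8 markers rose and 4 fell, beside 42.7% and 20.7% of all genes, and Wnk1 (-0.11, adjusted p = 0.66) and Egf (0.11, adjusted p = 0.68) again did not pass.

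Within the WNK pathway, Klhl3, Stk39, the ubiquitin ligase Nedd4l and the mineralocorticoid receptor Nr3c2 rose in female nuclei and Ppp1r1a, a phosphatase inhibitor, fell, out of 10 tested, beside 42.3% higher and 37.9% lower over all genes. Nr3c2 stood at 30.0, 32.6 and 37.6 CPM in cells and 970, 1008 and 1125 CPM in nuclei (4.96 ± 0.15). The kinase Wnk4 was at 609 to 651 CPM in cells and 446 to 619 CPM in nuclei (-0.25 ± 0.12, adjusted p = 0.076). Of the basolateral transport genes, 8 of 10 fell in female nuclei and none rose, and in the males 5 of 9 fell and none rose, where 20.7% of all genes were lower. Fxyd2, the gamma subunit of the sodium pump, stood at 15221, 16262 and 16736 CPM in female cells and 776, 815 and 918 CPM in nuclei (-4.26 ± 0.14). Atp1b1 fell by 2.71 ± 0.12 on the log2 scale and Kcnj10 by 1.32 ± 0.11, while Kcnj16 did not pass (0.18 ± 0.13, adjusted p = 0.19).

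Of 8 magnesium transport genes, 5 rose in female nuclei, among them Trpm6, Trpm7, Cnnm2 and Egfr, and 2 fell (Pcbd1, Slc41a3), beside 42.3% and 37.9% of all genes. Trpm7, a channel kinase that pairs with Trpm6, went from 364, 418 and 422 to 1214, 1416 and 1524 CPM (1.79 ± 0.12). Pcbd1, a transcriptional cofactor, fell from 635, 643 and 653 to 21.9, 29.1 and 33.9 CPM (-4.50 ± 0.14). Of 13 calcium and aldosterone genes, 4 rose and 6 fell, shares near those over all genes (42.3% and 37.9%). Calbindin (Calb1) went from 7769, 8824 and 9487 CPM in cells to 519, 1715 and 2095 CPM in nuclei (-2.59 ± 0.34), and kallikrein (Klk1), a protease secreted by the distal nephron, from 29391, 31289 and 36888 to 151, 207 and 236 CPM (-7.36 ± 0.21). Calcium-binding S100g fell by 6.68 ± 0.23 on the log2 scale. The channel Trpv5 rose from 12.4, 21.5 and 24.4 to 39.9, 43.4 and 44.3 CPM in the females (1.07 ± 0.21), whereas in the males it fell from 53.8, 71.7 and 177 to 14.4, 29.9 and 39.2 CPM (-2.08 ± 0.49, adjusted p = 0.00024); the male cells held 18 Trpv5 UMIs in all. Of the transcription factors, 9 of 14 were up and 2 down in female nuclei, beside 42.3% and 37.9% of all genes. In the males 8 of 13 were up and none down, beside 42.7% and 20.7% of all genes. Esrrg, an orphan nuclear receptor, rose by 6.21 ± 0.16 in the females and by 5.50 in the males. By an interaction term, the change from female cells to 3x500g nuclei differed between distal convoluted and thick ascending limb members for 173 of 11854 genes (1.46%), and for 74 to 114 genes without any 1 of the libraries of the fit. The balance was 93 higher and 80 lower over all members and 232 higher and 53 lower without mixed barcodes.

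**Figure D3:**
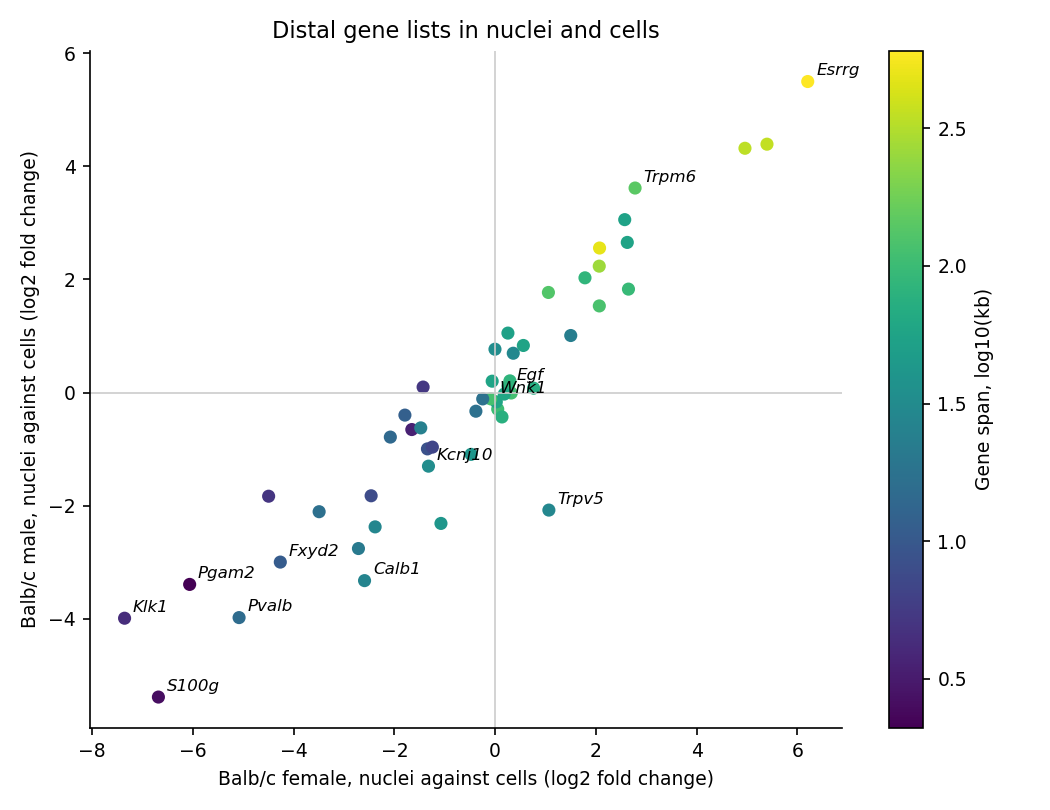
Log2 fold change of nuclei against cells in members of the Balb/c females (x axis) and males (y axis) for 51 genes of the distal convoluted lists, coloured by genomic length (log10 of kb); 11 genes with 3 or fewer UMIs in a group are not drawn. Esrrg and Trpm6 lie high in both, Pvalb, Fxyd2, Klk1 and S100g low in both, and Trpv5 at 1.07 in females and -2.08 in males.

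The genomic length of a gene moved with this difference, as a description across genes, which are not independent replicates. Over 10239 genes of the female comparison, Spearman's rho between the log2 difference and the length of the gene from first to last base in GRCm38 was 0.714, and over 5841 genes of the male comparison it was 0.622. Genes under 10 kb had a median log2 difference of -2.20 in the females (6.86% higher and 77.8% lower of 2171 genes), genes of 10 to 100 kb one of 0.22, and the 1599 genes over 100 kb one of 2.47 (93.3% higher, 2.31% lower). Slc8a1 spans 365 kb on chromosome 17 (81373105 to 81738377, minus strand), Trpm6 143 kb on chromosome 19 and Klhl3 113 kb on chromosome 13, whereas Pvalb spans 15.3 kb on chromosome 15 (78191114 to 78206400, minus strand), Klk1 4.26 kb on chromosome 7 and S100g 2.61 kb on the X chromosome. Wnk1, at 115 kb on chromosome 6, did not pass the test over all members and stood at a log2 difference of 0.40 after thinning. These lengths include introns, and intronic reads were counted in the levels of nuclei but not of cells. Ribosomal protein genes fell in nuclei in 80 of 81 cases in the females and in 79 of 79 in the males, where 37.9% and 20.7% of all genes were lower.

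Nuclei of the members were then divided by Slc8a1, a gene of the late segment and the connecting tubule that the member rule did not use. Thick ascending limb nuclei of the female 3x500g libraries held a mean of 404 CPM of Slc8a1. Whether a nucleus with a UMI was a late, a connecting tubule or another nucleus was not tested. Member nuclei with at least 1000 UMIs were thinned to 1000. A Slc8a1 UMI was then found in 3323 of 4788 such nuclei of the 9 Balb/c female libraries and was absent from 1465. The share with a UMI was 67.0%, 76.5% and 83.9% in the 3x500g libraries, 67.2%, 69.9% and 78.7% in the 1x2000g libraries and 52.1%, 53.2% and 65.3% in the sucrose libraries. The sucrose libraries all lay below the others. The UMI sums of both parts were compared with the library as a block, and since Slc8a1 made the division its own values are not a result.

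Nuclei with a Slc8a1 UMI carried more of the late genes. All 9 other late genes tested were higher in them, with a median log2 difference of 2.46, where 12.3% of the 10498 genes tested were higher and 14.5% lower. Egfem1 stood at 134, 429 and 982 CPM (lowest, median and highest of 9 libraries) in nuclei with a Slc8a1 UMI and at 0, 5.39 and 27.1 CPM in those without (6.00 ± 0.25). Calb1 stood at 799, 1586 and 2913 CPM against 156, 223 and 604 CPM (2.66 ± 0.13, adjusted p = 2.1e-13), with no overlap. Of 12 calcium and aldosterone genes 11 were higher, among them Trpv5 (44.3, 60.7 and 79.6 against 0, 1.08 and 4.52 CPM; 5.38 ± 0.27), the sodium channel subunits Scnn1g (4.29 ± 0.23) and Scnn1b (3.13 ± 0.12), the vitamin D receptor Vdr (1.14 ± 0.09) and Kl, the FGF23 coreceptor (1.60 ± 0.08). Only Atp2b1 of this list did not pass.

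Of 10 early genes tested, 4 were lower in nuclei with a Slc8a1 UMI (Egf, Erbb4, Col5a2 and Umod, which is also on the thick ascending limb list), 1 was higher (Abca13) and 5 did not pass, beside 14.5% lower and 12.3% higher over all genes. Egf stood at 2464, 3518 and 4744 CPM with a Slc8a1 UMI and at 3181, 4636 and 5893 CPM without (-0.34 ± 0.10, adjusted p = 0.0088), and Erbb4, a receptor of the EGF receptor family, at 966, 1389 and 2052 against 1728, 1876 and 2398 CPM (-0.54 ± 0.09). Pvalb did not differ beyond its spread over all members (-0.03 ± 0.11, adjusted p = 0.89), but was lower in nuclei with a Slc8a1 UMI once mixed barcodes were left out (-0.78, adjusted p = 3.1e-04). Leaving these out also selected nuclei by an early gene, since 596 of 1888 3x500g and 911 of 1550 1x2000g members were mixed by Umod. Trpm6 was higher over all members (0.56 ± 0.11, adjusted p = 0.00023) and was not called without mixed barcodes (0.07, adjusted p = 0.84). Wnk1 was higher in nuclei with a Slc8a1 UMI (0.68 ± 0.11) and stayed called without mixed barcodes (0.39). Markers of other cell types moved with the division: all 8 proximal tubule markers, all 3 thick ascending limb markers, all 3 intercalated markers and all 3 podocyte markers were lower in nuclei with a Slc8a1 UMI, and 4 of 6 connecting tubule and principal cell markers were higher. Slc34a1, the proximal phosphate transporter, stood at 167, 222 and 411 CPM with and 522, 804 and 1515 CPM without a Slc8a1 UMI. The part of other cells in the result was not tested beyond leaving out mixed barcodes, which reduced the count of called genes from 2809 to 828. Male nuclei thinned to 500 UMIs gave 558 called genes, with Calb1 at 2.67, Egfem1 at 4.88 and Egf at -0.63, and 1705 of the 1947 main calls that could be tested kept their sign.

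**Figure D4:**
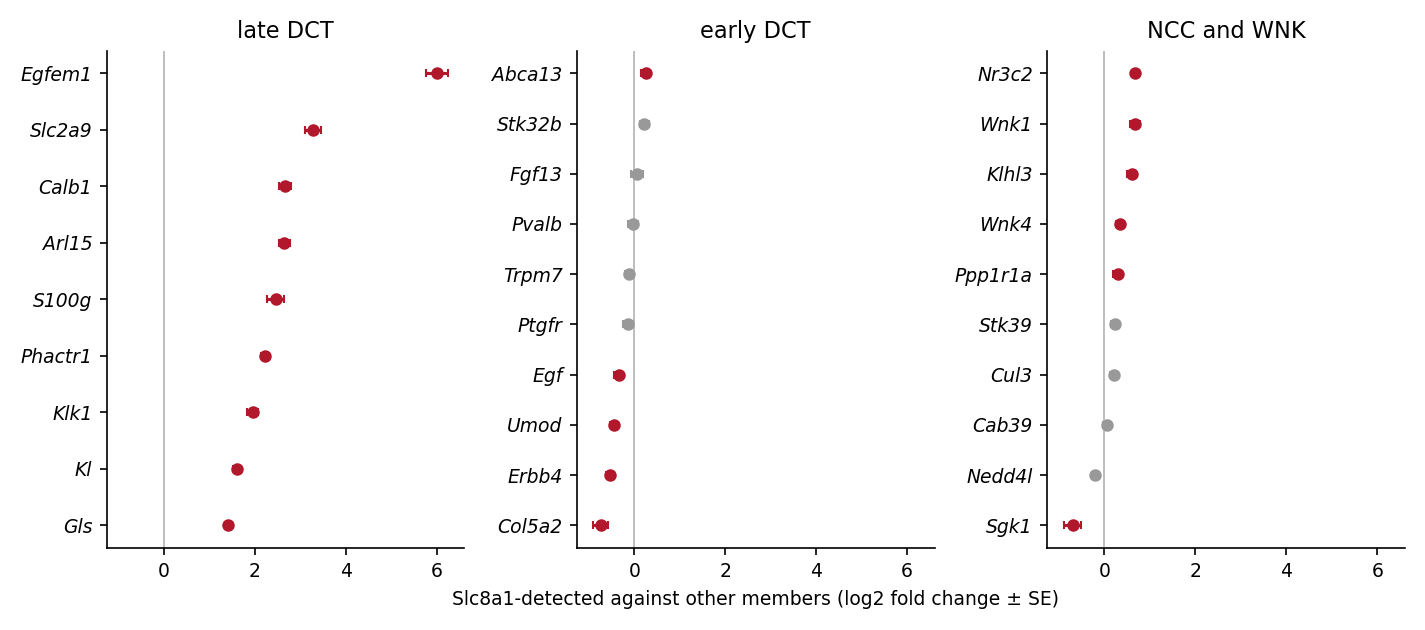
Log2 fold change with its standard error (x axis) between Balb/c female member nuclei with and without a Slc8a1 UMI, over 9 libraries, for late, early and WNK pathway genes (y axes). Red points passed an adjusted p of 0.05 and grey points did not; all 9 late genes lie to the right, and Pvalb lies at -0.03.

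Warm dissociation was compared with cold dissociation in fresh C57BL/6J cells. Temperature, enzyme and the other steps of the 2 protocols cannot be told apart. Several stress genes rose in distal convoluted cells, and few genes were called in all. Of the 2591 genes tested, 15 (0.579%) differed by edgeR's quasi-likelihood test, 13 higher (0.502%) and 2 lower (0.0772%) in warm cells. Of 12 immediate-early and heat-shock genes, 6 were higher (Fos, Jun, Junb, Jund, Btg2 and Hspa1a), with a median log2 difference of 1.97 against 0.00 over all genes. The study chose this list from genes induced in these warm libraries, so the count is not independent evidence of its direction. With mixed barcodes left out 2 genes were called, and 4 of the 15 could be tested; with barcodes thinned to 500 UMIs 0 were called by edgeR and DESeq2, with 13 at an unadjusted p under 0.05, where 230 genes and 1 of the 15 could be tested. Markers of other cells moved too: summed endothelial markers were at 24.0 to 65.2 CPM in cold and 100 to 289 CPM in warm members, and proximal tubule markers at 2187 to 2406 and 2918 to 4364 CPM, while 0 of the 6 proximal tubule genes tested were called and no endothelial gene passed the filter on low counts. Their part in the result was not tested beyond leaving out mixed barcodes. Without the warm library BG6 the count of called genes was 7, and without the cold libraries BG3 or BG5 it was 6 or 7.

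Fos, which encodes a subunit of the AP-1 transcription factor, was at 0, 0 and 9.0 CPM in cold members and at 341, 371 and 708 CPM in warm members. The cold libraries held 2 Fos UMIs in all and the warm ones 393, a ratio per UMI of 153 with a counting interval of 42.0 to 1265 (adjusted p = 3.2e-07). Junb, another AP-1 subunit, had 2 UMIs in cold and 108 in warm members (ratio 42.0, interval 11.3 to 351). Jun rose from 4.50, 13.0 and 13.5 to 133, 253 and 472 CPM (4.59 ± 0.58, adjusted p = 0.00040), and the heat-shock gene Hspa1a from 18, 30.4 and 36.1 to 84.8, 107 and 384 CPM (2.59 ± 0.57, adjusted p = 0.044). Every warm library lay above every cold one for these 4 genes. The RNA decay factor Zfp36 and Klf6 also rose, and the hemoglobin gene Hbb-bt fell (-2.35 ± 0.43), 1 of 4 erythrocyte genes called.

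Of the 43 genes of the distal convoluted lists that were tested, 0 were called by edgeR or by DESeq2, beside 0.579% of all genes, and 9 (20.9%) had an unadjusted p under 0.05, beside 8.88% of all genes. The count of 0 thus does not set these genes apart from the others. They were 8 markers, 7 WNK pathway genes, 8 basolateral genes, 5 magnesium genes, 8 calcium and aldosterone genes, 7 early genes, 5 late genes and 7 transcription factors, some on several lists. Pvalb stood at 713, 792 and 878 CPM in cold and 560, 581 and 1022 CPM in warm members (-0.09 ± 0.19, adjusted p = 0.91). Wnk1 (-0.08), Trpm6 (-0.21), Calb1 (-0.11), Egf (0.28 ± 0.11, adjusted p = 0.43) and Fxyd2 (-0.23 ± 0.09, adjusted p = 0.44) did not pass either. Low genes such as Klhl3, at 41.5 to 66.0 CPM of non-mitochondrial UMIs in cold members, could not be compared closely at this depth.

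The response of the members was set against that of their neighbours by an interaction term. Thick ascending limb barcodes gave 89 called genes of 2528 of their own and principal cell barcodes (at least 2 UMIs of Aqp2, and more than of Slc12a3 or Slc12a1) 64 of 2379. The change differed between distal convoluted and thick ascending limb cells for 18 of 3689 genes (0.488%) and between distal convoluted and principal cells for 16 of 3914 (0.409%). With mixed barcodes left out these counts were 11 and 5. Wnk1 was at -0.08 in distal convoluted and -1.25 in thick ascending limb cells (difference 1.14 ± 0.23, adjusted p = 0.013), Egf at 0.28 and -0.49 (0.76 ± 0.17, adjusted p = 0.027) and Fxyd2 at -0.23 and 0.65 (-0.90 ± 0.15, adjusted p = 0.0015). Btg2, an antiproliferative early response gene, rose by 1.91 and 4.64. Against principal cells, the immediate-early gene Ier3 differed most clearly, at -0.48 in distal convoluted and 3.18 in principal cells (difference -3.71 ± 0.38, adjusted p = 2.9e-09). The interaction with the thick ascending limb rested on the cold library BG3, since 1 gene was called without it. That with principal cells gave 10, 6 and 40 genes without the warm libraries BG2, BG4 and BG6 and 6 without either cold library BG1 or BG5.

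Cryopreserved members were compared with fresh members of the same dissociation, and the main fit did not pair libraries by suspension. In cold C57BL/6J members, 30 of 1730 genes (1.73%) were called, 9 higher (0.52%) and 21 lower (1.21%), and 50 with the suspension as a block. None of 35 distal convoluted genes was called by edgeR or DESeq2, and 7 (20%) had an unadjusted p under 0.05, beside 12.9% of all genes. Fos rose from 0, 0 and 9.26 to 108, 169 and 326 CPM, with 2 UMIs in fresh and 26 in cryopreserved members (ratio 66.2, counting interval 16.6 to 576; adjusted p = 9.0e-05), and Jun rose by 4.70 ± 0.72. The largest falls were in genes of other cells. All 5 proximal tubule markers tested and all 4 hemoglobin genes were lower, and no Hba-a1 UMI was left in cryopreserved members, at least 69.9-fold lower than in fresh ones. Pvalb stood at 733, 815 and 893 CPM in fresh and 326, 385 and 1295 CPM in cryopreserved members (-0.62, adjusted p = 0.37). The 3 cryopreserved libraries held only 10, 45 and 17 members. The count was 52 without the cryopreserved library BG30 and 14 without BG32, and 18 or 19 without the fresh libraries BG3 or BG5.

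In warm C57BL/6J members cryopreservation was followed by higher stress genes. Of 1478 genes 125 (8.46%) were called, 87 higher (5.89%) and 38 lower (2.57%). Of 17 stress genes, the list chosen from warm libraries, 16 rose, with a median log2 difference of 2.28. Hspa1a went from 94.0, 120 and 423 CPM in fresh to 1328, 1482 and 2062 CPM in cryopreserved members (3.04 ± 0.44), and Fos from 381, 411 and 780 to 1638, 2444 and 3580 CPM (2.28 ± 0.31). Calb1 fell from 4381, 4639 and 4773 to 1418, 1852 and 2312 CPM (-1.29 ± 0.17, adjusted p = 0.00050). Of 5 late genes tested, Calb1 and Klk1 (-1.17, adjusted p = 0.046, with overlap) fell. Kcnj16 (-0.85), Atp1b1 (-0.68) and Abca13 (-1.11) were lower too, whereas Pvalb (0.44, adjusted p = 0.38), Wnk1 (-0.10) and Fxyd2 (0.02) did not pass. Markers of other cells also moved: 5 of 5 proximal tubule genes fell, and 2 of 2 endothelial genes, 1 intercalated gene and 1 immune gene rose, with summed endothelial markers of 482 to 1244 CPM against 100 to 289 CPM in fresh members. Their part in the result was not tested, and only 7 genes were called without mixed barcodes, with 35 of the 36 main calls that could be tested keeping their sign. Without the cryopreserved library BG33 or BG35 the count was 64 or 188, and without the fresh library BG4 it was 59.

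Cryopreserved Balb/c female members differed from fresh ones in 189 of 6026 genes (3.14%), 35 higher (0.581%) and 154 lower (2.56%). With mixed barcodes left out 28 were higher and 14 lower, and with barcodes thinned to 500 UMIs 7 were higher and 0 lower. Of the distal convoluted lists, Klk1 fell from 15804, 17087 and 20347 to 7624, 11139 and 13438 CPM (-0.73 ± 0.16, adjusted p = 0.014). S100g (-0.46 ± 0.12, adjusted p = 0.049) and Pcbd1 (-0.53 ± 0.12) also fell, although S100g stood at 0.17 after thinning, and Gata3, a transcription factor of the late distal nephron, rose (0.78 ± 0.20), a call lost with DESeq2 (adjusted p = 0.17). Pvalb (-0.18, adjusted p = 0.39) and Fxyd2 (-0.36, adjusted p = 0.058) did not pass, and 0 of 8 markers and 0 of 10 WNK pathway genes were called by edgeR or DESeq2, with 3 of each at an unadjusted p under 0.05, beside 17.0% of all genes. Of 12 stress genes only Btg2 rose (1.06), and it was not called by DESeq2 (adjusted p = 0.098). All 6 proximal tubule markers tested fell, by 4.11 on the log2 scale for Slc34a1, and both intercalated markers rose. The count was 114 without the cryopreserved library MJ52, and 68, 82 and 103 without the fresh libraries LD01, LD02 and LD03.

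**Figure D5:**
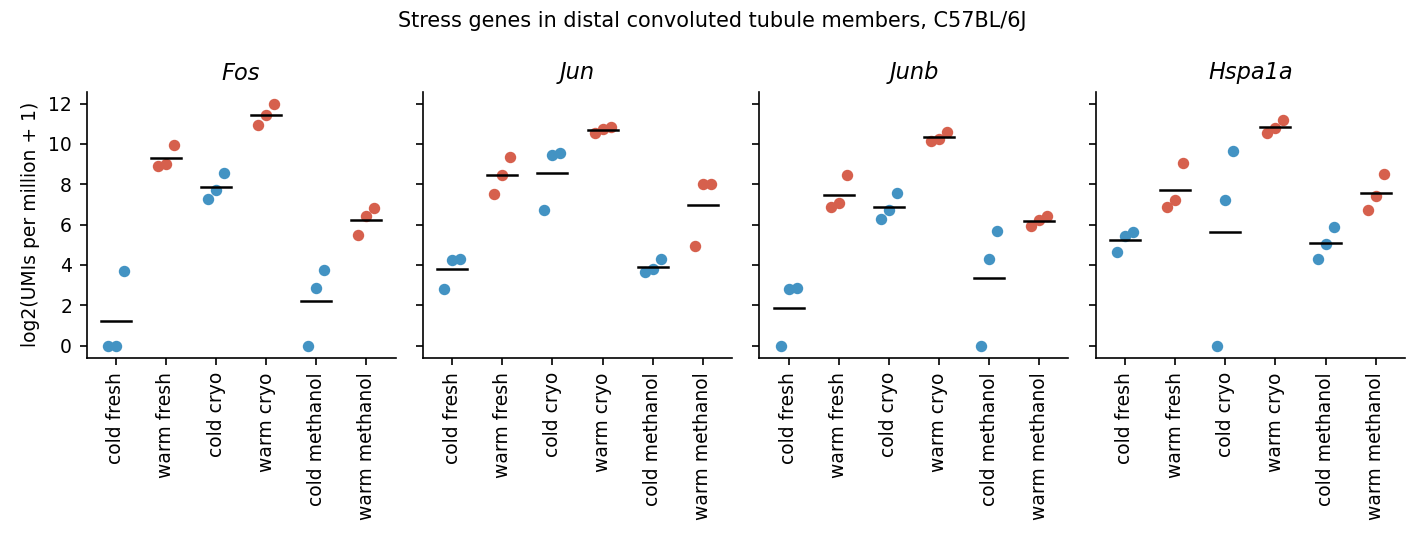
Levels of Fos, Jun, Junb and Hspa1a in distal convoluted members of the 6 C57BL/6J conditions (y axis, log2 of CPM of non-mitochondrial UMIs plus 1). Each point is 1 library and each bar the mean of 3, in blue for cold and red for warm dissociation; the warm fresh libraries lie above the cold fresh ones for all 4 genes, and the warm cryopreserved libraries above the warm fresh ones.

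Methanol-fixed members were compared with the fresh members of the same dissociation. In cold C57BL/6J members 600 of 2377 genes (25.2%) were called, 287 higher (12.1%) and 313 lower (13.2%). The balance of directions depended on the setting, with 151 higher and 80 lower by DESeq2 and 47 higher and 22 lower without mixed barcodes. Wnk1 stood at 3323, 3380 and 3803 CPM in fresh and 1239, 1436 and 2026 CPM in methanol-fixed members (-1.18 ± 0.15, adjusted p = 1.1e-05), and Egf at 2204, 2402 and 2482 against 923, 969 and 1041 CPM (-1.28 ± 0.12, adjusted p = 3.4e-07). Neither gene overlapped between the conditions. Trpm6 fell by 2.01 ± 0.51, Wnk4 by 1.27 ± 0.18, Bsnd by 1.33 ± 0.38 and the plasma membrane calcium pump Atp2b1 by 2.37 on the log2 scale. In all, 4 of 7 markers, 2 of 6 WNK pathway genes, 4 of 8 basolateral genes, 4 of 5 magnesium genes and 5 of 7 early genes fell, and Pcbd1 was the only listed gene of the segment that rose (0.44 ± 0.15). Other abundant genes did not pass: Pvalb (-0.28, adjusted p = 0.16), Calb1 (-0.12, adjusted p = 0.61), Fxyd2 (0.20, adjusted p = 0.25) and Slc8a1 (0.40, adjusted p = 0.49).

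Malat1, a long noncoding RNA retained in the nucleus, fell from 46437, 70050 and 88087 to 7678, 8124 and 11258 CPM (-2.92 ± 0.20). The 6 proximal tubule markers tested rose, Slc34a1 from 96.5, 181 and 269 to 350, 414 and 714 CPM (1.47 ± 0.27), as did all 4 hemoglobin genes, and 12 of 13 mitochondrial genes fell. Summed proximal tubule markers were at 6629 to 9067 CPM in methanol-fixed members and their part in the result was not tested. Leaving out mixed barcodes left 69 called genes, of which Egf was not one (-0.63, adjusted p = 0.50), and 238 of the 243 main calls that could be tested kept their sign.

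Warm methanol-fixed members, 61 in 3 libraries, gave 201 of 1334 genes (15.1%), 68 higher (5.1%) and 133 lower (9.97%) than in warm fresh members. Wnk1 fell from 3074, 3641 and 4631 to 1309, 1434 and 1663 CPM (-1.38 ± 0.18, adjusted p = 7.8e-05) and Egf from 2942, 3369 and 3521 to 1421, 1872 and 1912 CPM (-0.92 ± 0.16, adjusted p = 0.0012). Malat1 fell by 4.67 ± 0.25 on the log2 scale. Kcnj10 had 3 UMIs in methanol-fixed and 98 in fresh members (ratio 0.229, counting interval 0.0465 to 0.690). Fos, raised in warm fresh members, stood at 432, 490 and 897 CPM in fresh and 36.7, 68.3 and 90.7 CPM in fixed members (-3.43 ± 0.48), and 4 of 10 stress genes fell. None of 5 proximal tubule markers was called by edgeR or DESeq2, and 3 had an unadjusted p under 0.05, but their summed level, over the 8 listed, was 5390 to 7136 CPM in fixed and 2918 to 4364 CPM in fresh members, with no overlap. Their part in the result was not tested. Without the methanol-fixed library BG53 or BG55 the count was 71 or 55, and without the fresh library BG2 or BG4 it was 133 or 103. The 2 methanol comparisons had different fresh controls.

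The nuclei preparations were compared among Balb/c females, with sucrose nuclei unsorted and the others sorted. Against 3x500g, sucrose nuclei had lower levels of Trpm6, Slc8a1 and Klhl3. Of 11183 genes 2854 (25.5%) were called, 13.6% higher and 11.9% lower. Trpm6 stood at 705, 1145 and 1244 CPM in 3x500g and 487, 512 and 550 CPM in sucrose nuclei (-1.0 ± 0.16, adjusted p = 0.00047), Slc8a1 at 15800, 23460 and 26367 against 10494, 12092 and 14090 CPM (-0.84 ± 0.16, adjusted p = 0.0016) and Klhl3 at 1162, 1507 and 1597 against 838, 841 and 855 CPM (-0.75 ± 0.11). None of the 3 overlapped. Transcripts of other cells moved as well: at least 2 UMIs of Umod were found in 39.6% to 44.6% of sucrose members, immune markers summed to 41.1 to 118 CPM against 5.07 to 21.4 CPM in 3x500g, and hemoglobin genes to 32.0 to 35.1 against 5.07 to 8.33 CPM. Without mixed barcodes, which made up 53.2% to 56.0% of sucrose and 39.1% to 48.4% of 3x500g members, 1662 genes were called and 2598 of the 2607 main calls that could be tested kept their sign. Wnk4 (-0.62 ± 0.11) and Nedd4l (-0.63 ± 0.09) fell as well, and in all 4 of 10 WNK pathway genes, 5 of 8 magnesium genes, 5 of 14 transcription factors and 3 of 9 basolateral genes fell. Klk1 rose from 165, 226 and 257 to 548, 552 and 654 CPM (1.44 ± 0.14), and Ppp1r1a and Tmem52b rose among the markers. Pvalb, Wnk1 and Egf (-0.30, adjusted p = 0.058) were not called. Ribosomal protein genes were higher in 35 of 72 cases, and the heat-shock gene Hsp90ab1 by 1.87. The count was 1781 without the sucrose library MJ58.

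Of 11431 genes 1689 were called between 1x2000g and 3x500g nuclei (14.8%; 9.73% higher, 5.05% lower). With a log2 fold change of at least 1 asked as well, 644 genes were called for 1x2000g and 552 for sucrose. Klk1 rose from 168, 232 and 263 to 597, 731 and 852 CPM (1.72 ± 0.17), Pcbd1 by 1.00 and Ppp1r1a by 0.64, while Wnk4 (-0.51), Nedd4l (-0.49), Egfr (-0.50) and Pax8 (-0.46, but 0.077 after thinning) fell. Trpm6 (-0.20 ± 0.20), Slc8a1 (-0.35 ± 0.22), Pvalb (0.13) and Calb1 (-0.08) did not pass. Kap, an abundant proximal tubule transcript, rose from 122, 135 and 174 to 1167, 1576 and 1881 CPM (3.42 ± 0.18), 46 of 74 ribosomal protein genes rose, and at least 2 UMIs of Umod were found in 54.6% to 66.0% of 1x2000g members against 26.1% to 35.0% in 3x500g. Without mixed barcodes 813 genes were called, 573 higher and 240 lower, and 1448 of the 1452 main calls that could be tested kept their sign. Without the 1x2000g library MJ50 the count was 868, and without the 3x500g library MJ45 or MJ47 it was 1124 or 919. Between 1x2000g and sucrose nuclei, 351 of 11155 genes (3.15%) were called, 1.07% higher and 2.08% lower, with Trpm6 (0.78 ± 0.13, adjusted p = 0.0071), Fgf13 (0.68), Fxyd2 (0.42) and Klhl3 (0.38) higher in 1x2000g. This count was 136 without MJ50 and 126, 161 and 119 without the sucrose libraries MJ57, MJ58 and MJ59.

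Bulk RNA-seq of whole suspensions gave the distal genes a test in samples that the rule did not use, as a mixture of all cells in which fewer cells and less RNA per cell cannot be told apart. Warm C57BL/6J suspensions had higher levels of distal transcripts than cold ones: 7 of 9 markers, 9 of 12 WNK pathway genes, 10 of 13 calcium and aldosterone genes and 8 of 9 late genes rose, where 1224 of 14102 genes (8.68%) were called, 5.42% higher and 3.26% lower. Slc12a3 itself stood at 746, 986 and 1071 CPM in cold and 1186, 1243 and 1798 CPM in warm suspensions (0.59 ± 0.16, adjusted p = 0.036). Calb1 rose from 330, 340 and 351 to 500, 562 and 805 CPM (0.87 ± 0.14, adjusted p = 0.0020), and Scnn1g from 27.9, 38.0 and 40.7 to 82.3, 85.5 and 124 CPM (1.45 ± 0.16). Trpm6 (0.62 ± 0.16) and Slc8a1 (0.83 ± 0.12) rose too. Pvalb was at 8.79 to 12.7 CPM in cold and 10.1 to 16.3 CPM in warm suspensions (0.30, adjusted p = 0.42), and Fxyd2 at 0.03. Markers of other cells moved as well, with 6 of 7 connecting tubule and principal cell genes and 5 of 6 intercalated genes higher and all 3 podocyte genes lower. The count was 776 without BG22.

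Intact Balb/c female kidneys had lower levels of distal transcripts than the cold suspension. Of 16538 genes 3313 (20%) were called, 12.1% higher and 7.91% lower, and 5 of 9 distal markers and 11 of 13 calcium and aldosterone genes fell. Slc12a3 stood at 1104, 1176 and 1310 CPM in suspension and 747, 844 and 887 CPM in intact kidney (-0.53 ± 0.08, adjusted p = 0.0020), Pvalb at 96.2, 101 and 113 against 69.3, 77.5 and 80.4 CPM (-0.45 ± 0.07, adjusted p = 0.0025) and Calb1 at 670, 680 and 747 against 411, 474 and 476 CPM (-0.62 ± 0.07). None of these overlapped. Erbb4 rose (0.65 ± 0.05), and Egf (-0.13, adjusted p = 0.33) did not pass. All 5 endothelial genes were higher and all 4 hemoglobin genes lower in intact kidney, and their part in the result was not tested.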

How the data were processed

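UMI counts were deposited without normalization. Per the paper's methods, reads were mapped to mm10 in Cell Ranger 2.1.1 and barcodes were called with EmptyDrops; only exonic reads were counted in cell libraries, whereas introns counted as well in nuclei. The authors kept genes seen in at least 10 cells, cell barcodes with 200 to 3000 genes and under 50% mitochondrial UMIs, and nuclei with at least 450 (chemistry 2) or 900 UMIs (chemistry 3). Mitochondrial genes were removed from nuclei, and the male cell files list none. Bulk values were read counts deposited by the authors from STAR 2.6.1a and featureCounts, with strandedness not given in the sources used here.

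Members and gene lists were chosen with earlier results of these data known. Member UMIs were summed per library (at least 10 members each) and tested with edgeR 4.0.16 in R 4.3.3: TMM, filterByExpr, quasi-likelihood F-test, Benjamini-Hochberg adjustment over all genes tested, threshold 0.05. Only the groups compared entered a fit. Bulk counts were tested in the same way. Named genes were Pvalb, Wnk1, Trpm6, Egf, Calb1, Slc8a1 and Fxyd2 in each comparison, called members of the lists, and the called genes with the largest change and a mean of at least 50 CPM. Some genes that the rule names are not reported here. Genes outside this rule that are described with values were chosen after their values were seen. Shares were computed on barcodes with at least 500 UMIs, thinned to 500, and barcodes with fewer were left out. Where a group held no UMI, folds were set against 3 UMIs over the group, and with 1 to 3 UMIs an exact 95% interval of the ratio was given; both cover counting error only. Libraries summed to 983522 to 35170947 UMIs, and members per library numbered 10 to 739. Gene positions came from GENCODE for GRCm38. The test was also run on simulated counts with large changes in well-expressed genes and 1 fixed dispersion. That run did not cover the small stored libraries or mixed barcodes. DESeq2 1.42.0, other filters, stricter rules, thinning and mixed barcodes left out (2 or more UMIs of another type's marker) were the alternatives. A library came from 1 mouse. In the first experiment, cryopreserved and methanol-fixed libraries carry the suspension number of a fresh library, which pairs them. Labels of the Balb/c female cryopreserved libraries carry no such number. Correlations of paired deviations from group means lay between -0.0639 and 0.137.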

Additional observations from a re-analysis of the deposited data

Results flagged for a closer look

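Results are listed here where the change between preparations differed between distal convoluted members and another kind of barcode by an interaction term in edgeR's quasi-likelihood test, or between the sexes without a test. Every group held 3 libraries, too few for a test of single outlying libraries.

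Warm against cold dissociation differed between distal convoluted and thick ascending limb cells for 18 genes, as log2 differences of Btg2 (-2.73), the linker histone Hist1h1c (-2.29), H2-Ab1 (2.1), Aebp1 (1.89), the WNT antagonist Sfrp1 (1.87), Pfkp (-1.84), Wnk1 (1.14), Fxyd2 (-0.90) and Egf (0.76). Hist1h1c and H2-Ab1 did not pass the filter on low counts in the distal convoluted members alone. Between distal convoluted and principal cells it differed for 16 genes, among them Metrnl (-3.79), Ier3 (-3.71), S100a6 (3.66), creatine kinase Ckb (-2.74) and aldose reductase Akr1b3 (2.69). Of these, Metrnl, S100a6 and Akr1b3 did not pass that filter in the members alone, nor Metrnl, S100a6 and Ckb in the principal cells alone, so no change within those cells was tested for them. Nuclei against cells differed between distal convoluted and thick ascending limb members of the Balb/c females for 173 of 11854 genes, with Pdzrn4 (7.05), the chemokine Cxcl14 (-4.67), the glucose transporter Slc5a1 (4.19), Aoc1 (4.03), the FGF receptor Fgfr4 (3.62) and Foxq1 (3.61) farthest apart; Wnk1 (0.54, adjusted p = 0.057) was not called. Foxq1 did not pass the filter in the members alone, nor Cxcl14 in the thick ascending limb. Without mixed barcodes 285 genes were called, 232 higher and 53 lower, against 93 higher and 80 lower over all members. For this interaction the count was 103, 114 and 106 without the nuclei libraries MJ45, MJ46 and MJ47, and 80, 74 and 109 without the cell libraries LD01, LD02 and LD03.

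Listed genes that were called in opposite directions in the male and female comparisons of nuclei with cells, with no overlap in either, were Trpv5 (-2.08 in males, 1.07 in females), Gm42418 (1.51 and -1.55), and the proximal tubule genes Miox (1.03 and -2.71) and Ass1 (0.90 and -1.22). The difference between the sexes was not tested, and sex, age, chemistry and batch cannot be told apart.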

How the results depend on the processing

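Few members limited the C57BL/6J comparisons: some stored libraries held as few as 10 members, and low genes of the segment were not testable there. Of the values of named genes, 2535 of 2897 kept direction and side of the threshold when 1 library was left out and 2901 of 3208 under the other settings, where 270 lost and 31 gained their call. The causes were not tested.

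Numbers of called genes moved over 1.5 times as follows. With no filter on low counts, warm against cold gave 43 genes, cryopreservation 16 (cold), 311 (warm) and 362 (Balb/c female), bulk warm against cold 1912 and the interaction with the thick ascending limb 31. DESeq2 gave 231 and 74 genes for methanol (cold, warm), 958 for 1x2000g and 1644 for sucrose against 3x500g, and 232 between those 2. Asking also for a log2 fold change of at least 1 gave 366 and 125 for methanol, 87 for Balb/c female cryopreservation, 644, 552 and 71 for the nuclei preparations in that order, 329 and 905 for bulk warm and intact, and 916 for the Slc8a1 division. With the rule applied to barcodes thinned to 500 UMIs, the numbers were 0 by edgeR and DESeq2 for warm against cold (13 of 230 genes at an unadjusted p under 0.05), 6 for warm and 7 for Balb/c female cryopreservation, 38 for cold methanol, 2675 for female nuclei against cells, and 311, 543 and 91 for the preparations. With mixed barcodes left out, they were 2 for warm against cold, 14, 7 and 42 for cryopreservation (cold, warm, female), 69 for cold methanol, 813, 1662 and 160 for the preparations, 828 for the Slc8a1 division, and 11, 5 and 285 for the interactions with thick ascending limb, principal cells and in nuclei. The 14 for cold cryopreservation also lacked library BG30, where 7 of 10 members were mixed and fewer than 10 remained. Leaving out BG30 alone gave 52. At least 3 UMIs of Slc12a3 gave 68 for warm cryopreservation and 528 between 1x2000g and sucrose. At least 5 UMIs, chosen after seeing the data, gave 48 and 88 for warm and female cryopreservation. Male nuclei gave 558 for the Slc8a1 division.

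The kidney number as a replicate block gave 35 genes for warm against cold, which share only a number (2 of 3 warm libraries correlated best with their own number), and 50 for cold cryopreservation. In the other stored C57BL/6J comparisons the block moved no number over 1.5 times. Pairing the shares of stored and fresh libraries by suspension, added after seeing the data, changed no call. No paired analysis was possible for Balb/c female cryopreservation, nuclei or bulk because their labels carry no shared number. Thinning could not be used for cold cryopreservation and warm methanol, nor leaving out mixed barcodes for warm methanol, since too few members were left.

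Directions turned for Hsp90ab1 in warm cryopreservation without mixed barcodes (-0.045), for S100g in female cryopreservation (0.17), Wnk1 in female nuclei (0.40), Pax8 in 1x2000g (0.077) and Gk in sucrose nuclei (0.051) under thinning, and for Fxyd2 in the nuclei interaction without mixed barcodes (0.64). Share differences turned for cold cryopreservation with at least 3 UMIs (0.116 points), and for female cryopreservation thinned to 1000 UMIs (-0.626), without thinning (-0.840) and outside the proximal tubule (-0.0579).

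Leaving out 1 library gave 6 to 15 genes for warm against cold; 14 to 52, 59 to 188 and 68 to 181 for cryopreservation (cold, warm, female); 438 to 697 and 55 to 170 for methanol; 1789 to 4370 and 8206 to 8471 for male and female nuclei; 868 to 1435, 1781 to 2857 and 119 to 453 for the preparations; 776 to 924 and 2385 to 3086 for bulk; 2306 to 2770 for the Slc8a1 division; and 1 to 19, 6 to 40 and 74 to 114 for the interactions. Share differences ranged from -0.264 to 0.0318 points (cold methanol), -0.386 to 0.0662 (warm methanol) and -0.0213 to 0.273 (female cryopreservation); the other 8 kept their sign.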
